A study of Homo sapiens with 16 samples.

Results

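The late chase in ALKBH5-knockdown cells was examined by setting the 2 SLAM-seq libraries collected after 7.5 h of chase against the 2 collected after 4.5 h. These are 4 of 16 libraries, the others being knockdown cells at 0 h and 1.5 h and control cells, labelled wild type, at all 4 times, with 2 libraries in each group. All were THP-1 cells, a human acute leukaemia line of monocytic character, and the knockdown is called A5-KD as in the labels. Cells of both genotypes took up 100 µM 4-thiouridine (4sU) for 1 h, were washed, and were kept in medium with 10 mM uridine until polyadenylated RNA was prepared. How ALKBH5 was knocked down is not given in the sources used here. No label says that the 2 replicates of a group were separate cultures, so p-values measure the spread between these libraries, which may be technical. Genes with a readsCPM of at least 5, a CPM abundance deposited as 1 value per gene, were kept. They were 10553 of 60564 genes, of which 10549 were tested, since 4 had a rate of 0 in every library.

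SLAM-seq reads 4sU that a cell built into new RNA as T-to-C changes in the sequencing reads. The conversion rate of a gene, given here in percent, is the share of its sequenced T bases that read as C, and during a uridine chase it falls as labelled molecules decay and as unlabelled ones are made. A rate is therefore a share and carries no abundance. ALKBH5 is an eraser of m6A, adenosine methylated by a nuclear methyltransferase complex and bound by YTH-family reader proteins, some of which direct marked transcripts to decay. Short-lived mRNAs, such as those of immediate early transcription factors and cytokines, lose label early in a chase, whereas mRNAs of ribosomal and respiratory proteins are long-lived.

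The median rate over tested genes was 0.548% and 0.540% in the 2 A5-KD libraries at 7.5 h, against 0.746% and 0.748% at 4.5 h. The replicates of a time were thus close together and the times did not overlap. Between 0.645% and 1.22% of tested genes were listed at 0 in each of these 4 libraries, and 10293 genes were above 0 in all 4. Across genes, which are not independent replicates, the Spearman correlation between replicates was 0.555 at 7.5 h and 0.622 at 4.5 h. How many sequenced bases support each rate is unknown, so no interval for counting error can be given. Of 10 monocytic and myeloid markers 8 passed the abundance minimum, led by LYZ at 1276 readsCPM. Of 8 lymphoid markers 1 passed, and none of 5 erythroid or 7 epithelial and kidney markers did. ALKBH5 itself had 4.55 readsCPM and was not tested. Its rates were 0.108% and 0.149% at 7.5 h, against 1.35% and 0.246% at 4.5 h, and they say nothing of its level.

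**Figure D1:**
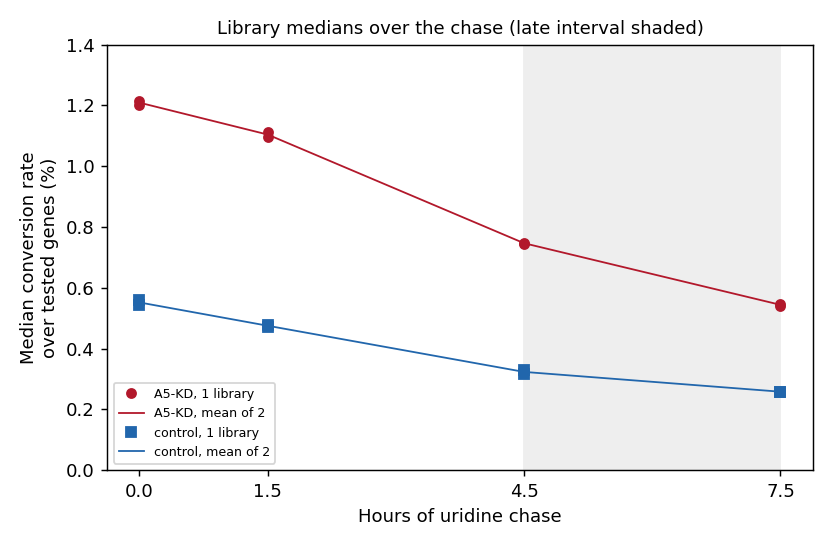
Median conversion rate over the tested genes (%) in each of 16 libraries, plotted against hours of chase, with points for libraries and lines through the mean of the 2 replicates; the interval studied is shaded. The A5-KD libraries at 7.5 h lie at 0.548% and 0.540%, below those at 4.5 h at 0.746% and 0.748%, and above the control libraries at the same times.

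Between 4.5 h and 7.5 h the rate of most transcripts in A5-KD cells was lower, and a minority passed the test gene by gene. The median change was −0.38 on the log2(rate in percent + 0.05) scale, so that 76.7% of the 4.5 h value was left at 7.5 h, with quartiles of −0.71 and −0.04. By limma with Benjamini-Hochberg adjustment at 0.05, fitted over all 16 libraries, 437 genes were lower (4.14%), 5 were higher (0.0474%) and 10107 did not pass. At an unadjusted p under 0.05 there were 2441 genes, 2342 of them lower. Both 7.5 h rates lay below both 4.5 h rates in 5090 genes (48.3%) and above them in 736 (6.98%). Among the 437 genes the time in which the rate plus the pseudocount fell by one factor of 2 had a median of 3.29 h, with a range of 0.564 h to 8.07 h. These genes were selected for their fall, so the times do not stand for all tested genes. For a rate near 0 at 7.5 h the time depends on the pseudocount.

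The call count rests on a spread shared with libraries outside this comparison. With only the 8 A5-KD libraries, 552 genes were lower and 7 higher. Of these, 347 and 3 were also called in the fit to all 16. A fit to the 4 libraries of this comparison alone called 0 genes, with a smallest adjusted p of 0.171 by limma and 2141 genes at an unadjusted p under 0.05. Without 4.5 h replicate 1 there were 15 genes lower, and without 4.5 h replicate 2 there were 8, while leaving out a 7.5 h replicate gave 158 and 168. Of the 80 genes named here and called lower, 7 and 2 passed without those 4.5 h libraries and 33 and 26 without 7.5 h replicates 1 and 2; every one kept its sign in all 4 fits. For a single gene, 2 libraries against 2 allow no exact permutation p under 0.333.

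**Figure D2:**
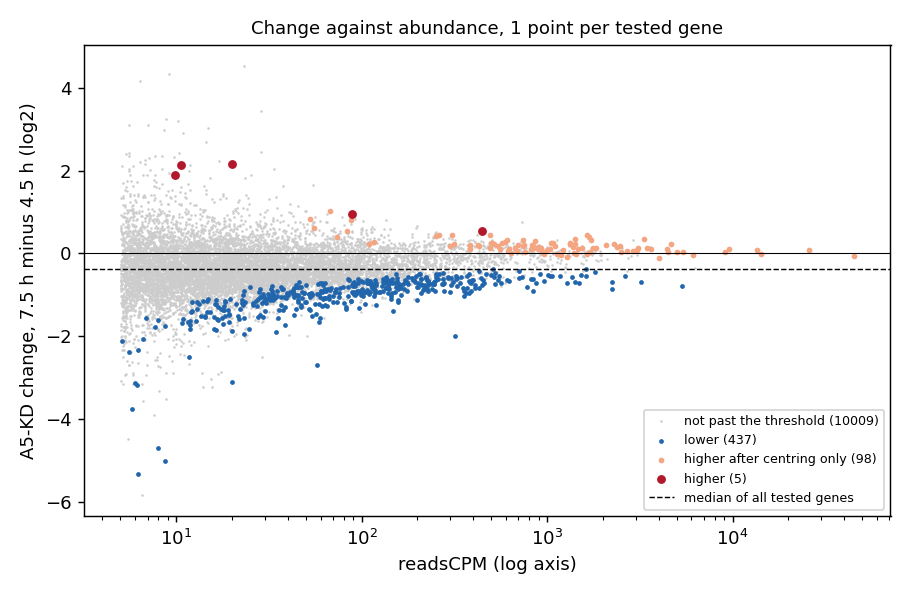
Change in A5-KD conversion rate, 7.5 h minus 4.5 h (log2), against readsCPM (log axis), with 1 point for each of 10549 tested genes; colours mark the genes past the threshold and the dashed line is the median of −0.38. The 437 genes called lower lie closer to the median as abundance rises, and most genes called higher after centring sit near a change of 0 at high abundance.

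The genes with the largest called falls among those at or above the median abundance of 21.6 readsCPM were ST3GAL5, OSBPL5, DNAJC17, BCL2L11, LNCRNA-IUR, TREX1, TTLL4, MRAS, MVP and RNF216P1. ST3GAL5, which makes the ganglioside GM3 and lies on chromosome 2 from 85837120 to 85905199 (GRCh38), had rates of 0.228% and 0.0566% at 7.5 h, against 0.653% and 0.614% at 4.5 h. It fell by 1.99 log2 (SE 0.325, limma adjusted p = 0.010), and both 7.5 h libraries were below both 4.5 h libraries although they differed from each other. OSBPL5, a lipid transfer protein of the oxysterol-binding family on chromosome 11 from 3087116 to 3166739, had 0.419% and 0.253% at 7.5 h, against 1.26% and 1.55% at 4.5 h. Its change was −1.94 (SE 0.344, adjusted p = 0.0141), again without overlap of the times. BCL2L11, which encodes the pro-apoptotic protein BIM, had 0.283% and 0.0713% at 7.5 h, against 0.852% and 0.520% at 4.5 h, a change of −1.83 (SE 0.463, adjusted p = 0.0471). TREX1, a DNA exonuclease that clears cytosolic DNA, had 0.304% and 0.630% at 7.5 h, against 1.30% and 1.71% at 4.5 h, a change of −1.65 (SE 0.386, adjusted p = 0.0369). The 7.5 h rates of TREX1 were unequal, yet stayed under both 4.5 h rates.

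The other 6 had changes between −1.90 and −1.56, and no overlap between times, as the rule for naming them required. MRAS, a Ras-family GTPase, had 0.202% and 0.524% at 7.5 h, against 1.03% and 1.13% at 4.5 h. MVP, the major vault protein, had 0.425% and 0.266% at 7.5 h, against 1.06% and 1.14% at 4.5 h. TTLL4, a tubulin polyglutamylase, had 0.213% and 0.350% at 7.5 h, against 0.940% and 0.921% at 4.5 h. In DNAJC17, a J-domain protein, the 4.5 h libraries themselves stood far apart, at 2.12% and 0.809%, against 0.209% and 0.465% at 7.5 h. Several of these genes share their locus with another annotated gene. TREX1, MVP and RNF216P1 overlap one on the same strand, and ST3GAL5, DNAJC17, BCL2L11, LNCRNA-IUR and MVP one on the opposite strand. Whether the counting used strand is not given in the sources used here, and RNF216P1 is a pseudogene whose reads can be shared with its parent, so these rates are uncertain.

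Of the 5 genes called higher, 2 met the abundance condition. COPS6, a subunit of the COP9 signalosome on chromosome 7, had rates of 0.765% and 0.724% at 7.5 h, against 0.329% and 0.388% at 4.5 h. It rose by 0.96 log2 (SE 0.204, adjusted p = 0.0262), and the times did not overlap. OST4, a small subunit of the oligosaccharyltransferase that attaches N-glycans, had 0.526% and 0.486% at 7.5 h, against 0.354% and 0.309% at 4.5 h, a rise of 0.54 (SE 0.117, adjusted p = 0.0278). The remaining 3 were TBL3, MACROD1 and ADNP-AS1, with readsCPM of 9.87, 10.6 and 19.9, named because they complete the set of 5. ADNP-AS1 had 0.229% and 0.388% at 7.5 h, against 0.0187% and 0.0390% at 4.5 h, and overlaps ADNP and DPM1 on the opposite strand.

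**Figure D3:**
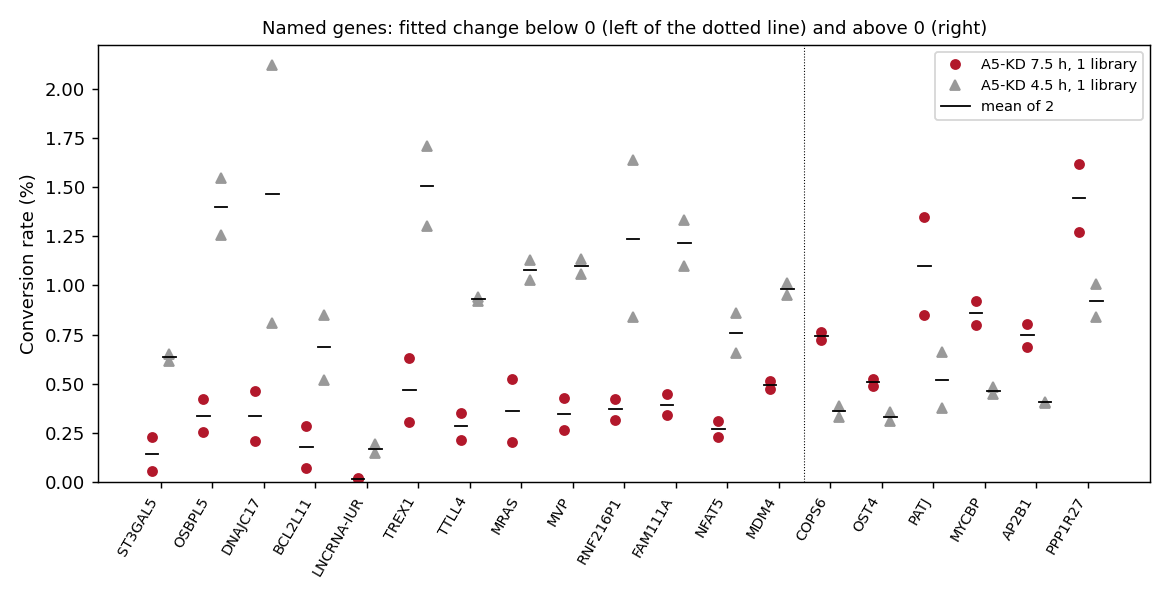
Conversion rates (%) of the named genes in single A5-KD libraries, with circles for 7.5 h, triangles for 4.5 h and bars for the mean of 2. For ST3GAL5 the 7.5 h points lie at 0.228% and 0.0566%, below 0.653% and 0.614% at 4.5 h; for COPS6 they lie at 0.765% and 0.724%, above 0.329% and 0.388%.

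Relative to the common fall, far more transcripts were called higher than lower. A rate that stays flat or rises also counts as higher on this scale, and whether these transcripts kept label was not tested. Centring every library at its median log2 rate adds 0.42 log2 to every change, and 103 genes were then higher (0.976%) and 7 lower (0.0664%) by limma. Of the 103 genes, 93 had an uncentred change above 0 and 10 below 0. The balance depended on the centring. With libraries centred on the summed rate of the 500 most abundant genes, 30 genes were lower and 5 higher. FAM111A, a protease that acts at stalled replication forks, had 0.338% and 0.445% at 7.5 h, against 1.10% and 1.33% at 4.5 h, a centred change of −1.10 (adjusted p = 0.0274). NFAT5, the transcription factor of the osmotic stress response, had 0.231% and 0.307% at 7.5 h, against 0.862% and 0.654% at 4.5 h, a centred change of −0.91 (adjusted p = 0.0467). MDM4, the p53 inhibitor related to MDM2, was more abundant and had 0.474% and 0.512% at 7.5 h, against 1.01% and 0.953% at 4.5 h. Its change was −0.93 uncentred (SE 0.108, adjusted p = 0.00510) and −0.50 centred (adjusted p = 0.0467). In all 3 genes both 7.5 h rates lay below both 4.5 h rates. Of the 5 genes named here and called lower after centring, 0 passed with only the 8 A5-KD libraries or without the variance trend. All 5 passed with centring on the 500 most abundant genes.

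On the higher side of the centred comparison were PATJ, a polarity protein, MYCBP, a MYC-binding protein, AP2B1, the beta subunit of the clathrin adaptor AP-2, and PPP1R27, a phosphatase regulatory subunit. MYCBP had 0.801% and 0.921% at 7.5 h, against 0.480% and 0.448% at 4.5 h, with a centred change of 1.25 (adjusted p = 0.0443) and an uncentred one of 0.82 (adjusted p = 0.0907). AP2B1 had 0.688% and 0.806% at 7.5 h, against 0.402% and 0.406% at 4.5 h, with a centred change of 1.23 (adjusted p = 0.0467). Neither gene's times overlapped, and both share their locus with another gene on the same strand. The centred calls of PATJ, MYCBP, AP2B1 and PPP1R27 were each lost in 8 alternative settings that left out no single library. Of the 27 genes named here and called higher after centring, 4 passed with only the 8 A5-KD libraries. With centring on the 500 most abundant genes 5 passed, without the variance trend 0, and at a pseudocount of 0.2 all 27. Every one kept its sign in these 4 settings.

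The 13 mRNAs of the mitochondrial genome, which encode core subunits of the respiratory complexes, fell as a set. All 13 had both 7.5 h rates below both 4.5 h rates, 10 were called lower (76.9%, against 4.14% of all tested genes), and their changes ran from −0.64 to −0.36 with a median of −0.52, against −0.38 for all tested genes. MT-CO2, of cytochrome oxidase, had 0.260% and 0.243% at 7.5 h, against 0.394% and 0.392% at 4.5 h, a change of −0.56 (SE 0.0768, adjusted p = 0.00707). MT-ND4, of complex I, had 0.278% and 0.283% at 7.5 h, against 0.433% and 0.414% at 4.5 h, a change of −0.52 (SE 0.0732, adjusted p = 0.00707). None of the 13 was called after centring, where MT-CO2 stood at −0.13 (adjusted p = 0.521). These are abundant transcripts, and 11.1% of genes in the highest quintile of abundance were called lower, so their count is read against that share too. MT-ND4 with MT-ND4L, and MT-ATP8 with MT-ATP6, overlap on the same strand.

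Nuclear genes for the same complexes had medians near 0. Of 38 tested complex I genes 0 were called in either direction, against 4.14% of all tested genes lower and 0.0474% higher. Their median change was 0.01. With centring, 4 of the 38 were higher, against 0.976% of all tested genes, and 0 were lower. Of 39 genes of complexes II to V 0 were called, with a median of 0.10. After centring 12 were higher, against 0.976% of all tested genes, and 0 were lower. This list had a median readsCPM of 574, and the centred share was not worked out by abundance. COX4I1, of cytochrome oxidase, had 0.468% and 0.506% at 7.5 h, against 0.378% and 0.310% at 4.5 h, a change of 0.45 (SE 0.149, adjusted p = 0.103) that was 0.87 when centred (adjusted p = 0.0247). ATP5PF, of ATP synthase, had 0.531% and 0.510% at 7.5 h, against 0.463% and 0.488% at 4.5 h, a change of 0.12 (adjusted p = 0.298) that was 0.54 when centred (adjusted p = 0.00441). The 7.5 h rates of both genes were higher than either 4.5 h rate.

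Genes of the MLL-fusion leukaemia programme, the transcription factors and chromatin genes that MLL fusions such as the one in THP-1 keep active, included some of the called falls. Of 17 tested 5 were called lower (29.4%, against 4.14% of all tested genes) and 14 had both 7.5 h rates below both 4.5 h rates (82.4%, against 48.3%); every member's change was below 0, from −2.92 to −0.12, with a median of −0.65. MEF2C, a myeloid and muscle transcription factor, had 0.607% and 0.540% at 7.5 h, against 0.825% and 0.908% at 4.5 h, a change of −0.56 (SE 0.0834, adjusted p = 0.00805). ZEB2, a zinc finger repressor, had 0.395% and 0.381% at 7.5 h, against 0.615% and 0.710% at 4.5 h, a change of −0.70 (SE 0.117, adjusted p = 0.0115). SATB1, a chromatin organiser, had 0.371% and 0.341% at 7.5 h, against 0.636% and 0.835% at 4.5 h, a change of −0.94 (SE 0.187, adjusted p = 0.0211). PBX3 and RUNX1 completed the 5. MYB, a regulator of immature blood cells, did not pass: its 7.5 h rates of 0.832% and 0.520% overlapped the 0.747% and 1.14% at 4.5 h.

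Among 16 tested myeloid lineage factors 3 were called lower (18.8%, against 4.14% of all tested genes), namely FLI1, RUNX1 and ETV6, with a list median of −0.73. FLI1, an ETS factor, had 0.497% and 0.430% at 7.5 h, against 0.840% and 0.887% at 4.5 h, a change of −0.83 (SE 0.164, adjusted p = 0.0209). SPI1, the factor PU.1 that defines the myeloid lineage, had 0.419% and 0.716% at 7.5 h, against 1.01% and 1.06% at 4.5 h, a change of −0.85 that missed the threshold (adjusted p = 0.0916). Immediate early factors had a similar median of −0.65, but 0 of 20 were called, and in 14 both 7.5 h rates lay below both 4.5 h rates (70%, against 48.3% of all tested genes). KLF6 had 0.488% and 0.338% at 7.5 h, against 0.791% and 0.935% at 4.5 h (−0.99, SE 0.290, adjusted p = 0.0725). For FOS the 7.5 h libraries gave 0.669% and 0.0711%, against 1.43% and 0.803% at 4.5 h (SE 0.674, adjusted p = 0.118), so its spread between replicates was wide.

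Some transcripts that encode regulators of mRNA stability fell. Of 10 tested mRNA destabilisers of the ZFP36, Roquin and BTG/TOB families 2 were called lower (20%, against 4.14% of all tested genes), with a median of −0.89. RC3H1, the RNA-binding protein Roquin-1, had 0.328% and 0.308% at 7.5 h, against 0.707% and 0.726% at 4.5 h, a change of −1.06 (SE 0.234, adjusted p = 0.0303). BTG1, which links to the CCR4-NOT deadenylase, had 0.216% and 0.273% at 7.5 h, against 0.839% and 0.609% at 4.5 h, a change of −1.39 (SE 0.333, adjusted p = 0.0404). The 49 tested genes of the decay machinery had a median of −0.39, close to that of all genes. Of these, 5 were called lower (10.2%, against 4.14% of all tested genes). They were the CCR4-NOT genes CNOT9, CNOT7 and CNOT4, the poly(A) nuclease PARN and LSM1, of the decapping-associated LSM ring. PARN had 0.219% and 0.317% at 7.5 h, against 0.716% and 0.739% at 4.5 h, a change of −1.31 (SE 0.281, adjusted p = 0.0278). LSM3, another ring subunit, went the other way at 0.795% and 0.759% at 7.5 h, against 0.634% and 0.676% at 4.5 h (0.23, adjusted p = 0.304; centred 0.65, adjusted p = 0.0323).

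Of 16 tested m6A writers, readers and erasers 0 were called, against 4.14% of all tested genes called lower. In 12 both 7.5 h rates lay below both 4.5 h rates (75%, against 48.3%), and the list median was −0.53. WTAP, the adaptor of the methyltransferase complex, had 0.462% and 0.411% at 7.5 h, against 0.699% and 0.691% at 4.5 h, a change of −0.62 (SE 0.174, adjusted p = 0.0673). HNRNPA2B1, an RNA-binding protein proposed as an m6A reader, had 0.457% and 0.516% at 7.5 h, against 0.443% and 0.483% at 4.5 h, with overlapping times and a change of 0.06 (adjusted p = 0.842). The receptor AXL, with its relative MERTK and their ligands, gave 0 calls among 4 tested. AXL had 0.538% and 0.531% at 7.5 h, against 0.576% and 0.671% at 4.5 h (−0.20, SE 0.163, adjusted p = 0.494).

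The called apoptosis genes held both anti- and pro-apoptotic members. Of 17 tested BCL2-family and IAP genes 4 were called lower (23.5%, against 4.14% of all tested genes) and 12 were below 4.5 h without overlap (70.6%, against 48.3%), with a median of −0.69. MCL1, an anti-apoptotic protein with a short-lived mRNA, had 0.311% and 0.381% at 7.5 h, against 0.823% and 0.712% at 4.5 h, a change of −1.05 (SE 0.234, adjusted p = 0.0309). BIRC3, an inhibitor of apoptosis and NF-kB target, had 0.344% and 0.316% at 7.5 h, against 0.677% and 0.769% at 4.5 h, a change of −1.02 (SE 0.236, adjusted p = 0.0357). XIAP, a caspase inhibitor, had 0.397% and 0.433% at 7.5 h, against 0.790% and 0.801% at 4.5 h (−0.87, SE 0.209, adjusted p = 0.0410). The pro-apoptotic member of the 4 was BCL2L11. BID, another pro-apoptotic gene and the most abundant of the list, had 0.732% and 0.626% at 7.5 h, against 0.686% and 0.697% at 4.5 h, so its times overlapped.

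An AU-rich nonamer bound by ZFP36-family destabilisers, TTATTTATT, was looked for on the transcript strand in the 3′ UTRs of genes called lower in 5 lists. Such elements are a known feature of unstable mRNAs, but the lifetimes of these mRNAs were not measured. No member of the 5 lists was called lower after centring, and a link between the nonamer and the late fall was not tested. Among the 14 genes called lower in the chemokine, destabiliser, apoptosis, MLL-fusion and NF-kB lists 4 held it. These were ZEB2, SATB1, XIAP and BIRC3, and the first copy is shown for ZEB2, SATB1 and XIAP, with the nonamer in capitals.
ZEB2: ttcctaattTTATTTATTtcatactgt
SATB1: tagtcctcaTTATTTATTtgtagatcc
XIAP: aaatttattTTATTTATTtaattttct

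The windows were read from GENCODE 29 transcripts (GRCh38), at chr2:144388429-144388455 on the minus strand for ZEB2, chr3:18348488-18348514 on the minus strand for SATB1 and chrX:123909017-123909043 on the plus strand for XIAP. The nonamer stood in 702 of 8851 tested genes with a 3′ UTR (7.93%), in 44 of 391 called lower (11.3%) and in 2 of 92 called higher after centring (2.17%). Their 3′ UTRs also differed in length, with medians of 1554 bases in genes called lower, 311 in those called higher after centring and 1026 in all tested genes. Of 27-base windows laid end to end over these UTRs 0.0995% held it. The 3′ UTRs of ZEB2, SATB1, XIAP and BIRC3 were 5370, 3783, 6798 and 632 bases long.

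Chemokine and cytokine mRNAs had a median change of −0.52 over 17 tested genes, 3 of them called lower (17.6%, against 4.14% of all tested genes). CCL2, a monocyte attractant, had 0.772% and 0.754% at 7.5 h, against 1.11% and 1.15% at 4.5 h, a change of −0.54 (SE 0.0746, adjusted p = 0.00707). CCL3 had 0.530% and 0.503% at 7.5 h, against 0.752% and 0.959% at 4.5 h, a change of −0.67 (SE 0.109, adjusted p = 0.00991). The third was CCL3L1, a near-identical copy of CCL3, so reads may have been split between them. MIF, a constitutively made cytokine, was not lower, with 0.277% and 0.254% at 7.5 h, against 0.237% and 0.247% at 4.5 h (0.11, adjusted p = 0.383; centred 0.54, adjusted p = 0.00698). TLR2, a receptor for bacterial lipoproteins, was the 1 of 7 tested Toll-like receptor and adaptor genes called (14.3%, against 4.14% of all tested genes). It had 0.454% and 0.367% at 7.5 h, against 1.46% and 1.01% at 4.5 h (−1.46, SE 0.246, adjusted p = 0.0117).

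Interferon-stimulated genes gave calls in opposite directions on the different scales. Of 43 tested 8 were called lower, which is 18.6%, against 4.14% of all tested genes and 11.1% of the quintile with the highest readsCPM. The list median was −0.37, against −0.38 for all genes. After centring 4 were higher, against 0.976% of all tested genes, and 0 were lower. SAMD9L, an antiviral and growth-restricting protein, had 0.529% and 0.430% at 7.5 h, against 0.918% and 0.976% at 4.5 h, a change of −0.92 (SE 0.152, adjusted p = 0.0107). IFIT1, which binds foreign RNA 5′ ends, had 0.263% and 0.314% at 7.5 h, against 0.655% and 0.671% at 4.5 h, a change of −1.08 (SE 0.197, adjusted p = 0.0168). PARP14, PLSCR1, SAMD9, XAF1, IFIT2 and IFIT3 were the other 6, named after their values were seen, with changes from −1.04 to −0.71. The IFIT genes overlap LIPA on the opposite strand. The genes higher after centring encode small proteins. IFI27 had 0.386% and 0.367% at 7.5 h, against 0.344% and 0.357% at 4.5 h, with no overlap and a change of 0.09 (adjusted p = 0.372) that was 0.52 when centred (adjusted p = 0.00143). IFI6, IFITM1 and IFITM3 had centred changes of 0.67, 0.46 and 0.48 and adjusted p of 0.00477, 0.0302 and 0.00441.

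Mitosis and spindle genes had a median of −0.49, and 6 of 45 were called lower (13.3%, against 4.14% of all tested genes). CKAP2, a spindle protein, had 0.774% and 0.765% at 7.5 h, against 1.28% and 1.35% at 4.5 h, a change of −0.74 (SE 0.140, adjusted p = 0.0191). CENPF, of the kinetochore, had 1.10% and 0.825% at 7.5 h, against 1.78% and 1.74% at 4.5 h, a change of −0.85 (SE 0.170, adjusted p = 0.0218). PRC1, DLGAP5, BUB1B and CKS2 were also called, and BIRC5, survivin, was not, at 1.37% and 1.77% at 7.5 h, against 1.38% and 1.09% at 4.5 h. Of 37 DNA replication genes 0 were called, against 4.14% of all tested genes called lower, and their median was −0.52. The smallest p was that of RRM2, a subunit of ribonucleotide reductase, at 0.753% and 0.901% at 7.5 h, against 1.39% and 1.67% at 4.5 h (−0.85, SE 0.218, adjusted p = 0.0505). Of 12 replication-dependent histones 2 were called lower (16.7%, against 4.14% of all tested genes). H4C3 had 0.758% and 0.733% at 7.5 h, against 1.24% and 1.26% at 4.5 h, a change of −0.71 (SE 0.0863, adjusted p = 0.00588), and H1-4 was listed at 0 in both 7.5 h libraries, against 1.04% and 1.48% at 4.5 h. These mRNAs mostly lack a poly(A) tail, which the libraries selected for. H3-3B, a polyadenylated replacement histone, had 0.779% and 0.720% at 7.5 h, against 1.19% and 1.29% at 4.5 h (−0.69, SE 0.0880, adjusted p = 0.00630).

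Ribosomal protein mRNAs had median changes near 0. Of 48 large-subunit genes 0 were called in either direction, with a median of −0.00, and of 33 small-subunit genes 0 were called, with a median of 0.02. The share of all tested genes called lower was 4.14%. After centring 5 and 1 were higher, against 0.976% of all tested genes, and 0 were lower. RPL27 had 0.559% and 0.524% at 7.5 h, against 0.385% and 0.446% at 4.5 h, a change of 0.35 (SE 0.120, adjusted p = 0.111; centred 0.77, adjusted p = 0.0144). RPS24 had 0.470% and 0.401% at 7.5 h, against 0.386% and 0.485% at 4.5 h, and its times overlapped. Mitochondrial ribosomal proteins had 5 of 75 called lower (6.67%, against 4.14% of all tested genes) and a median of −0.32, with MRPS12 at 0.422% and 0.506% at 7.5 h, against 1.10% and 1.13% at 4.5 h (−1.18, SE 0.179, adjusted p = 0.00830).

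Of 37 tested translation factors 4 were called lower, EIF5, EIF3A, EIF5B and EIF4E. That is 10.8%, near the 11.1% of the quintile with the highest readsCPM, against 4.14% of all tested genes. The list median was −0.21, and 5 genes had both 7.5 h rates above both 4.5 h rates (13.5%, against 6.98% of all tested genes). EIF5, which triggers GTP hydrolysis at the start codon, had 0.623% and 0.642% at 7.5 h, against 1.04% and 1.11% at 4.5 h, a change of −0.72 (SE 0.0932, adjusted p = 0.00665). EIF4E, the cap-binding factor, had 0.443% and 0.247% at 7.5 h, against 0.871% and 0.708% at 4.5 h, a change of −1.13 (SE 0.274, adjusted p = 0.0427). Among 25 genes of the ATF4 and unfolded protein response 2 were called lower, DNAJC3 and DDIT3 (8%, against 4.14% of all tested genes). The list median was −0.56. DDIT3, the stress factor CHOP, had 0.325% and 0.324% at 7.5 h, against 0.603% and 0.749% at 4.5 h (−0.95, SE 0.238, adjusted p = 0.0469). Of 24 heat shock chaperones 3 were lower, CCT3, HSPA8 and DNAJB6 (12.5%, against 4.14% of all tested genes). HSPE1 was higher when centred (0.51, adjusted p = 0.0252).

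Of 37 tested proteasome genes 2 were called lower, a share of 5.41% that is near the 4.14% of all tested genes. The uncentred median was −0.10 and 0 were higher. After centring 5 were higher, against 0.976% of all tested genes, and 0 were lower. PSMD12, a lid subunit, had 0.612% and 0.565% at 7.5 h, against 1.46% and 1.28% at 4.5 h, a change of −1.15 (SE 0.179, adjusted p = 0.00905). PSMB5, a catalytic subunit, had 0.691% and 0.606% at 7.5 h, against 1.11% and 1.09% at 4.5 h, a change of −0.72 (SE 0.148, adjusted p = 0.0237). PSME2, of the interferon-inducible activator, had 0.534% and 0.538% at 7.5 h, against 0.370% and 0.416% at 4.5 h, a change of 0.41 (SE 0.112, adjusted p = 0.0627) that was 0.83 when centred (adjusted p = 0.00637). In each of the 3 genes the times did not overlap.

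Several cytoskeletal and other abundant transcripts were higher relative to the common fall. Of 26 actin and actin-regulating genes 0 were called, against 4.14% of all tested genes called lower, and their median was 0.04. After centring 7 were higher, against 0.976% of all tested genes. The list had a median readsCPM of 371, and the centred share was not worked out by abundance. ACTB had 0.616% and 0.729% at 7.5 h, against 0.586% and 0.594% at 4.5 h, a change of 0.17 (adjusted p = 0.389) that was 0.59 when centred (adjusted p = 0.0252). The ferritin light chain FTL, the most abundant iron-regulated mRNA but FTH1, had 0.324% and 0.308% at 7.5 h, against 0.310% and 0.296% at 4.5 h, with overlapping times (0.05, adjusted p = 0.623; centred 0.48, adjusted p = 0.00441). B2M, the light chain of MHC class I, had 0.334% and 0.319% at 7.5 h, against 0.306% and 0.310% at 4.5 h (0.07, adjusted p = 0.395; centred 0.50, adjusted p = 7.2e-04). The 9 azurophil granule and lysozyme genes had the highest list median, 0.24, with 5 above 4.5 h without overlap (55.6%, against 6.98% of all tested genes). None was called uncentred, and 2 were higher after centring, against 0.976% of all tested genes. ELANE, neutrophil elastase, had 0.148% and 0.146% at 7.5 h, against 0.0921% and 0.109% at 4.5 h (0.39, SE 0.181, adjusted p = 0.224), rates near the pseudocount of 0.05, which shrinks their log2 changes.

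Sterol and fatty acid synthesis genes had 2 of 27 called lower (7.41%, against 4.14% of all tested genes) and a median of −0.44. SQLE, squalene epoxidase, had 0.623% and 0.646% at 7.5 h, against 1.29% and 1.27% at 4.5 h, a change of −0.96 (SE 0.137, adjusted p = 0.00757). INSIG1, which holds back the sterol sensor complex, had 0.569% and 0.502% at 7.5 h, against 1.30% and 1.33% at 4.5 h, a change of −1.23 (SE 0.267, adjusted p = 0.0294). SLC2A1, the glucose transporter GLUT1, was the 1 of 14 hypoxia targets called (7.14%, against 4.14% of all tested genes). It had 0.475% and 0.526% at 7.5 h, against 1.49% and 0.988% at 4.5 h (−1.20, SE 0.241, adjusted p = 0.0224). Among 12 glycolytic enzymes only PFKP was called lower (−0.97, adjusted p = 0.0251), a share of 8.33%, against 4.14% of all tested genes. The list had a median readsCPM of 185, and 11.1% were called lower in the quintile with the highest readsCPM. GAPDH had 0.454% and 0.471% at 7.5 h, against 0.412% and 0.398% at 4.5 h (0.17, SE 0.187, adjusted p = 0.619).

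RNA-binding splicing factors had a few calls. HNRNPF had 0.429% and 0.374% at 7.5 h, against 0.925% and 1.17% at 4.5 h, a change of −1.27 (SE 0.190, adjusted p = 0.00805). With SYNCRIP it made the 2 called of 22 HNRNP genes (9.09%, against 4.14% of all tested genes called lower), whose median was −0.21. Of 12 SR factors 1 was called, SRSF4 (8.33%, against 4.14% of all tested genes). In 11 both 7.5 h rates lay below both 4.5 h rates (91.7%, against 48.3%), and the median was −0.56. Among 203 ZNF zinc finger genes 7 were called lower (median −0.54), a share of 3.45% that is under the 4.14% of all tested genes. One of them, ZNF765, had 0.292% and 0.343% at 7.5 h, against 0.841% and 1.37% at 4.5 h (−1.62, SE 0.313, adjusted p = 0.0200). Of 15 long noncoding RNAs 1 was called (6.67%, against 4.14% of all tested genes). This was PVT1, at 0.515% and 0.342% at 7.5 h, against 0.807% and 0.816% at 4.5 h (−0.87, SE 0.195, adjusted p = 0.0310). MALAT1, a nuclear RNA with the highest readsCPM of the table, had 0.546% and 0.581% at 7.5 h, against 0.588% and 0.599% at 4.5 h, a change of −0.07 (SE 0.0376, adjusted p = 0.302) that was 0.36 when centred (adjusted p = 0.00143).

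**Figure D4:**
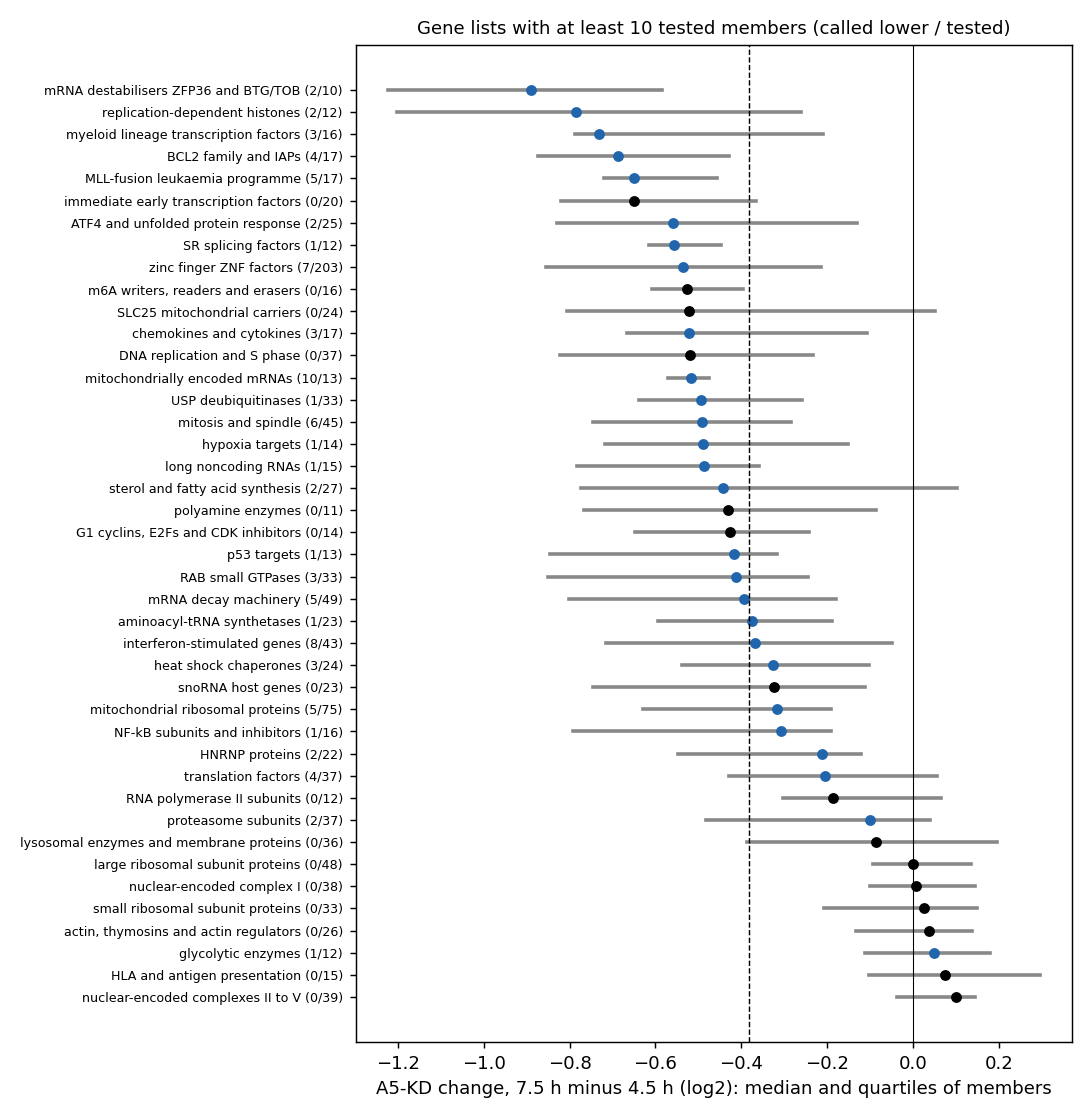
Median (point) and quartiles (bar) of the A5-KD change, 7.5 h minus 4.5 h (log2), in gene lists with at least 10 tested members, labelled with the number called lower out of the number tested; blue points mark lists with a call, and the dashed line is the median of all genes, −0.38. Lists run from mRNA destabilisers at −0.89 at the top to nuclear genes of complexes II to V at 0.10 at the bottom.

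The other lists had few calls or none, beside 4.14% of all tested genes called lower. RAB GTPases (3 of 33 lower, 9.09%, median −0.41) and USP deubiquitinases (1 of 33, 3.03%, −0.49) were among them. So were aminoacyl-tRNA synthetases (1 of 23, 4.35%, −0.38) and p53 targets (1 of 13, 7.69%, −0.42, MDM4). SLC25 carriers (24 tested), G1 cyclins with E2Fs and CDK inhibitors (14), snoRNA host genes (23), polyamine enzymes (11), RNA polymerase II subunits (12) and lysosomal genes (36) had 0 calls each without centring; after centring 1 lysosomal gene was higher. No list had a member called higher without centring.

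Transcripts with a higher rate at the start of the chase had a larger late fall. In quintiles of tested genes by their A5-KD rate at 0 h, low to high, the median late change was 0.01, −0.23, −0.45, −0.55 and −0.62. By the change in control cells between 0 h and 4.5 h, from libraries outside this comparison, the quintiles with the lowest and highest early change had median late changes of −0.61 and −0.06. By transcript length the shortest quintile, with a median of 798 bases, had −0.09 and the longest, with a median of 6878, had −0.51. By 3′ UTR length the shortest and longest quintiles had −0.24 and −0.51, and by GC content the lowest and highest had −0.46 and −0.26. The density of GGACT, a sequence of the m6A consensus, gave no order, with −0.29 in both its lowest and highest quintile and −0.45, −0.44 and −0.42 between. These are descriptions across genes, and the features move together. Protein-coding genes had a median of −0.42 (8981 genes), lincRNAs −0.32 (290), antisense genes −0.17 (482) and processed pseudogenes 0.04 (389), the last of which can share reads with their parent genes.

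Abundance set how small a change could be called. The share called lower was 0.664% in the lowest quintile of readsCPM and 11.1% in the highest, and the median standard error was 0.577 and 0.197 log2 in those quintiles. The median change differed less, at −0.40 and −0.25. At the abundance minimum, POLR3B and RGCC, with 5.03 readsCPM, were just inside, and 2 unnamed genes lay just under 5. POLR3B had rates of 0.702% and 1.83% at 7.5 h, against 0.586% and 0.843% at 4.5 h.

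**Figure D5:**
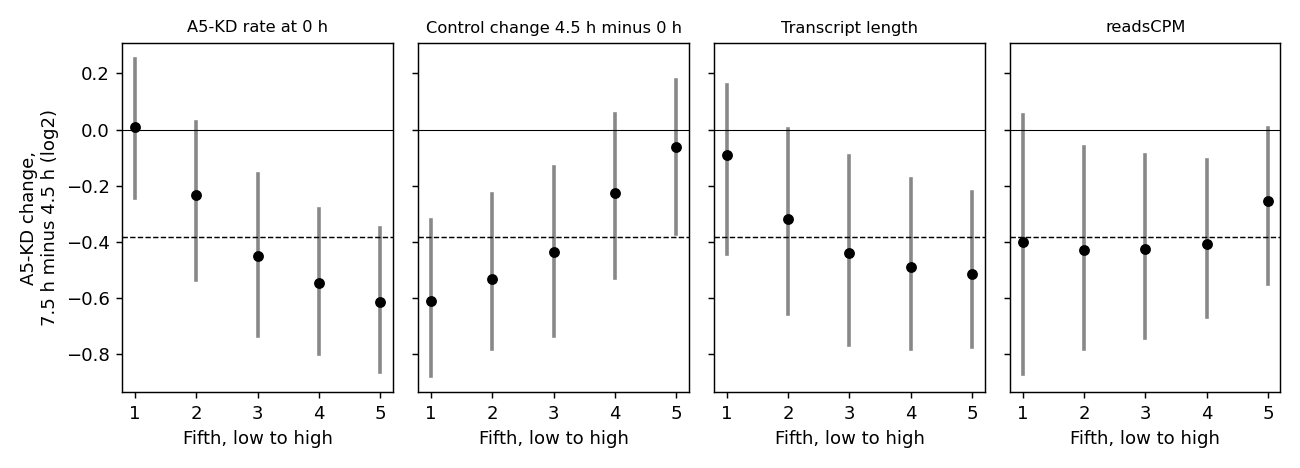
Median (point) and quartiles (bar) of the A5-KD change, 7.5 h minus 4.5 h (log2), in quintiles of tested genes ordered by A5-KD rate at 0 h, by control change between 0 h and 4.5 h, by transcript length and by readsCPM; the dashed line is the median of all genes. By A5-KD rate at 0 h the medians run from 0.01 in the lowest quintile to −0.62 in the highest.

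Set against control cells, the late interval in A5-KD cells gave no gene whose change differed past the threshold. The control libraries had median rates of 0.258% and 0.259% at 7.5 h, against 0.318% and 0.329% at 4.5 h. At 0 h the A5-KD libraries had median rates of 1.22% and 1.20%, against 0.543% and 0.561% in control libraries, and the part of this gap in the comparison was not tested. The A5-KD change minus the control change had a median of −0.11 log2, with 0 genes called of 10549 by limma (0%), a smallest adjusted p of 0.0520 and 947 genes at an unadjusted p under 0.05. After centring 0 were called and 876 had an unadjusted p under 0.05, with a smallest adjusted p of 0.0573. Taken alone, the late change was called lower in 437 genes in A5-KD cells and in 358 in control cells (3.39%), and higher in 5 and in 30 (0.284%), with medians of −0.38 and −0.23. The genes with the smallest p for the difference were MYT1L, HEXD, RBM41 and EPM2A on the lower side and ADNP-AS1, NPHP4 and TSTA3 on the higher side. RBM41, an RNA-binding protein, had 0.279% and 0.299% at 7.5 h, against 0.879% and 1.02% at 4.5 h, in A5-KD cells; in control cells it had 0.144% and 0.317% at 7.5 h, against 0.120% and 0.111% at 4.5 h. EPM2A, the glycogen phosphatase laforin, had 0.0232% and 0.175% at 7.5 h, against 1.00% and 1.12% at 4.5 h, in A5-KD cells, and 0.623% and 0.389% at 7.5 h, against 0.273% and 0.356% at 4.5 h, in control cells. MYT1L in control cells was listed at 0 in both 4.5 h libraries and at 6.37% and 6.26% at 7.5 h, a pattern of 1 gene at 10.6 readsCPM.

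Set against the interval before it, the late change in A5-KD cells also differed in no gene past the threshold. The change between 4.5 h and 1.5 h was called lower in 959 genes (9.09%) and higher in 62 (0.588%), with a median of −0.42, over the same 3 h. The late change minus this middle change had a median of −0.00, with 0 genes called (0%) and 590 at an unadjusted p under 0.05; after centring 0 were called and 649 had an unadjusted p under 0.05. Both intervals use the 4.5 h libraries, so their differences share that value. Among the genes with the smallest p were LAMTOR2, UBE2V1, UBAC2, ARNTL and ADNP-AS1. ARNTL, the clock factor BMAL1, had 0.301% and 0.258% at 7.5 h, against 0.246% and 0.292% at 4.5 h, with overlapping times.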

How the data were processed

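SLAM-seq conversion rates of 16 THP-1 libraries were analysed. The authors deposited a fraction per gene and library, read here as the T-to-C conversion rate, because the file headers do not name it. They also deposited one CPM column, per the file headers, whose library is not stated. The hg38 build, HISAT2 2.1.0 and CASAVA are named in the submitters' processing notes, while the conversion caller is not given in the sources used here. A5-KD is the genotype assigned to columns with the prefix S, by elimination after C was read as control. Depth per rate is unknown, and no unlabelled library was used here.

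Rates in percent plus 0.05 were put on the log2 scale and fitted with limma 3.58.1 in R 4.3.3, as 8 group means over 16 libraries, with a variance trend in log2(CPM + 0.01), no replicate block and Benjamini-Hochberg adjustment at 0.05 over all 10549 tested genes. The comparisons were A5-KD 7.5 h minus 4.5 h, that change minus the control change, and that change minus the A5-KD change from 1.5 h to 4.5 h, each also with every library centred on its median log2 rate. The fit was checked on simulated data, drawn with gene-wise and with moderated spreads; in both, some unchanged genes were called and the smaller known changes were mostly not, so a gene without a call is not shown to be unchanged. Fold changes are on the rate plus pseudocount scale and understate changes of low rates.

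Genes named were the 10 largest called changes per direction at or above the median CPM, above 0 in all 4 libraries and without overlap; the same for 5 per direction when centred; for differences without calls the 3 smallest p per direction; and in each of 54 lists the 3 most abundant members and the 2 with the smallest p. The members, lists, pseudocount and model were chosen with earlier results of these data known. Which list members appear, and further called members, were chosen after their values were seen. Symbols came from the file for 8711 tested genes and from a gene name table for 1818, and positions and sequences from GENCODE 29. Alternatives were the pseudocount, the CPM minimum, genes at 0, the variance trend, the replicate block, fewer libraries, other centrings and leaving out each library. Some items that this rule would name are not reported here.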

Additional observations from a re-analysis of the deposited data

How the results depend on the processing

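The direction of the bulk change held under every alternative run, with a median of −0.41 at a pseudocount of 0.01, −0.31 at 0.2, −0.35 at a readsCPM of at least 20, and −0.40 to −0.37 when single libraries were left out, but the number of calls did not hold. The 437 lower and 5 higher genes became 830 and 12 at a pseudocount of 0.2, 212 and 2 without the variance trend, 0 and 0 with the 4 libraries alone, and 8 to 168 and 0 to 4 when single libraries were left out. After centring the 7 lower and 103 higher genes became 2 and 50 at a pseudocount of 0.01, 29 and 237 at 0.2, 0 and 0 without the trend or with the 4 libraries alone, 1 and 5 with the 8 A5-KD libraries, and 0 to 11 and 10 to 39 when single libraries were left out. The lower count was 3 at a readsCPM of at least 1 and 19 at 20. Centring on the mean gave 59 higher, and on the 500 most abundant genes 30 lower and 5 higher. The difference from control, with 0 calls, had 4 at a pseudocount of 0.01 on either scale, 1 uncentred and 3 centred among genes above 0 in all 4 libraries, and 2 and 1 without the trend. Leaving out single libraries gave 0 to 8 uncentred and 0 to 7 centred. The difference from the middle interval stayed at 0 calls in all alternatives, with medians of 0.026 at a pseudocount of 0.2, 0.017 and −0.031 at a readsCPM of at least 1 and 20, and −0.022 to 0.011 without single libraries. The cause of these shifts was not tested. The labels do not say whether equal replicate numbers mark paired samples. Replicate deviations correlated between −0.04 and 0.04 from group to group across genes, which gave no sign of pairing but cannot exclude it. With the replicate block 369 genes were lower and 5 higher, and 3 were lower when centred. No named gene that was called changed sign. Of 129 named genes, 7 that were not called changed the sign of the uncentred change, each when a library was left out (ARNTL, IFITM1, MERTK, RPS24, BID, HNRNPA2B1 and POLR3B), and 9 that were not called changed that of the centred one. Leaving out a library leaves a lone sample that is assumed to vary like the other groups. Unknown depth per rate limits what can be said of any single gene.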
